A study of Rattus norvegicus with 25 samples.

Results

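The 10 genes described here are 7 matrix metalloproteinases (Mmp2, Mmp3, Mmp9, Mmp12, Mmp13, Mmp14 and Mmp19) and 3 tissue inhibitors of metalloproteinases (Timp1, Timp2 and Timp3). They were found by gene symbol, and all 10 were present, each once, among the 16881 symbols of the count tables. RNA came from tooth and periodontal ligament, the fibrous tissue that anchors a tooth in its socket, of Sprague-Dawley rats whose maxillary first molars had been extracted, left dry and put back. In delayed replantation (DR) the tooth stayed dry for 60 min, and in immediate replantation (IR) for 5 min, and tissue was taken at day 7 or day 3. DR day 7, IR day 7, DR day 3 and IR day 3 each held 6 libraries, and 1 library was labelled NT and control. All carry the age postnatal day 21, without saying whether it was reached at replantation or at collection, so NT and the replanted groups can differ in age. Nor do the labels say whether libraries came from separate animals, so every p-value measures the spread between libraries, which may be technical.

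Matrix metalloproteinases are zinc-dependent enzymes, secreted or held at the cell surface, that are made as inactive proenzymes and cut collagens and other matrix proteins once activated. TIMPs bind the active enzymes and block them, so the matrix is turned over according to the balance of both. In the periodontium and in bone they are known from ligament remodelling, inflammation and resorption. The measurements here are transcripts, which say nothing of how much enzyme was active.

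For 6 of the 10 genes the RefSeq promoter table of build GRCr8 held a sequence: Mmp3, Mmp12, Mmp13, Timp1, Timp2 and Timp3. Each reached from 250 bases before the gene start to 50 after it. Promoters of this family are textbook examples of regulation through AP-1 sites, the binding sites of Fos and Jun proteins, and PEA3 sites, bound by Ets factors. Both were therefore searched as TGANTCA, which is its own reverse complement, and as AGGAAG on both strands. These motifs share no letters at the matches found. TGANTCA occurred in Mmp3, Mmp12 and Mmp13, starting 71, 87 and 66 bases before the start, against 7.33% of all 33469 promoters in the table. AGGAAG or its complement occurred in Mmp3, in Mmp13 and, at 2 places, in Timp1, against 34.5% of all promoters. Timp2 and Timp3 held neither in this window. Only exact matches were searched, so variants of the motifs were not counted, such as tgagtaa in the Timp1 window printed below. The 120 bases before the start are printed for the 3 metalloproteinases and for Timp1. Mmp13 and Timp1 were chosen as the members with the most day 3 libraries above all day 7 libraries. Mmp12 and Mmp3 were added because they belong to the same run of neighbouring genes as Mmp13. Capitals mark the AP-1 motif in the 3 metalloproteinases and the PEA3 motif in Timp1. The windows lie at chr8:12782709-12782828 (plus strand) for Mmp13, chr8:12866532-12866651 (plus strand) for Mmp12, chr8:12925161-12925280 (plus strand) for Mmp3 and chrX:3771123-3771242 (minus strand) for Timp1.
Mmp13: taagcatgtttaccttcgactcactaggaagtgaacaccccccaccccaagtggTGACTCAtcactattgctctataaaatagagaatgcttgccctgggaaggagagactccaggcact
Mmp12: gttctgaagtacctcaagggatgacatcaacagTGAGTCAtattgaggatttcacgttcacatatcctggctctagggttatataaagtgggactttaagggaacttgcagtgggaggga
Mmp3: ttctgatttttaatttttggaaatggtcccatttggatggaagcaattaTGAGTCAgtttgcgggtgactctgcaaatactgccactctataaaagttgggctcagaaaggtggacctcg
Timp1: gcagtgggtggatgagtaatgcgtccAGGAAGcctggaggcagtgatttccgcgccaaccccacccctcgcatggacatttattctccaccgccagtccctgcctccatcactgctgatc
The RefSeq gene table of GRCr8 lists Mmp13, Mmp12, Mmp1b, Mmp3 and Mmp1 as consecutive neighbours. A motif match describes letters only and says nothing about binding in these samples.

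Libraries held 5.04 to 8.81 M counts in the replanted groups and 8.55 M in NT, and 11492 genes, all 10 members included, were tested over the 24 replanted libraries. Ribosomal RNA entries, which count toward the library total, took 9.74% to 33.8% of the counts in replanted libraries and 2.91% in NT. Levels are given as CPM, counts scaled to a common effective library size; since each read marks a transcript's 3′ end, levels of different genes can be set side by side without correction for length. Markers of the labelled tissue were detected: 9 of the 10 listed fibroblast and ligament markers were in the tables, and at most 1 of them was at 0 in any library. All 6 odontoblast and pulp markers were in the tables too, with at most 2 at 0 in a library. Their amounts were very low in some day 3 libraries, so detection alone does not show intact tooth tissue. The summed odontoblast and pulp list stood at 7.42 CPM of the library total in IR day 3 replicate 6 and 16.4 CPM in DR day 3 replicate 3. It was 454 to 631 CPM in DR day 7, 364 to 836 CPM in IR day 7 and 1840 CPM in NT. Transcripts of tissue outside the tooth were present as well. A list of lipid-secreting gland markers took up to 2.65% and a nasal gland and olfactory list up to 22.3% of the counts of single day 3 libraries. DR day 3 replicates 1, 2 and 3 and IR day 3 replicates 3, 4 and 6 exceeded 1% of the first or 10% of the second list, and each member's day 7 over day 3 difference is also given with these 6 libraries left out. That leaves DR day 3 replicates 4, 5 and 6 and IR day 3 replicates 1, 2 and 5. For 8 of the 10 genes these include the 5 highest day 3 libraries. A lower value thus follows from the choice for most members and is no independent check.

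At day 7 the family had one order of abundance in both groups. By mean level it ran Mmp13, Timp1, Mmp14, Mmp9, Timp2, Mmp2, Mmp12, Timp3, Mmp3 and Mmp19. In DR day 7, Mmp13 averaged 1109 ± 305 CPM and Mmp19 3.38 ± 1.39 CPM (SD, n = 6). In IR day 7 the same genes averaged 1349 ± 353 and 5.33 ± 2.66 CPM (SD, n = 6). Several neighbours in this order lay within each other's spread. In DR day 7, Timp1 at 747 ± 297 CPM overlapped Mmp14 at 590 ± 175 CPM, and in IR day 7, Timp3 at 90.4 ± 28.4 CPM overlapped Mmp3 at 90.2 ± 62.1 CPM. In NT the order was another one, led by Mmp14 (955 CPM), Mmp13 (913 CPM) and Mmp2 (580 CPM).

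**Figure D1:**
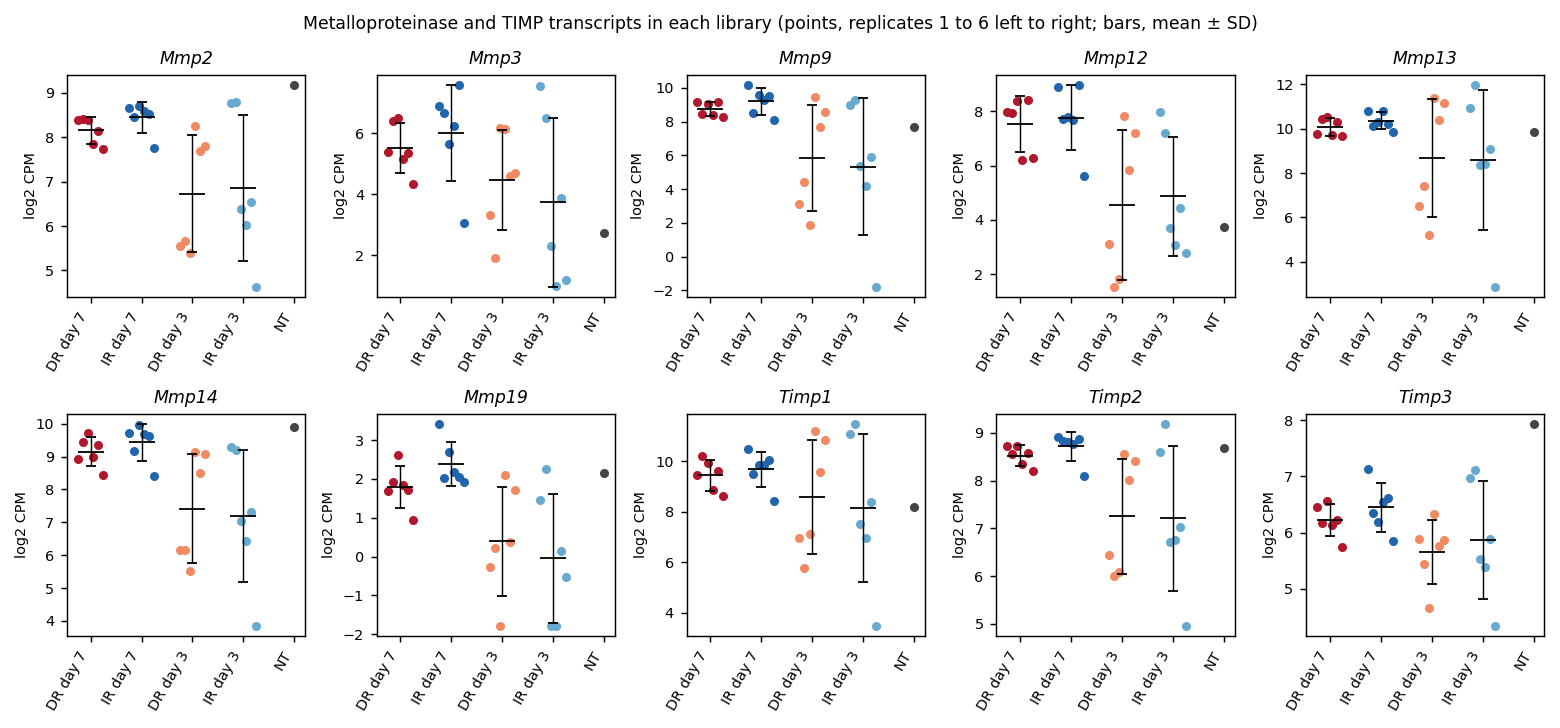
Level of each gene in each library as log2 CPM (prior count of 2) against group, with points for replicates 1 to 6 and bars for mean ± SD (NT is 1 library). Day 7 points sit close together, while day 3 points spread widely; Mmp13, for example, lay between 807 and 1780 CPM in the 12 day 7 libraries and between 7.04 and 4050 CPM in the 12 day 3 libraries.

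Mmp13, the collagenase that cleaves fibrillar collagen and is made by osteoblasts and hypertrophic chondrocytes, was the most abundant member. In DR day 7 its lowest, median and highest levels were 807, 1063 and 1464 CPM, and in IR day 7 they were 931, 1237 and 1780 CPM. In DR day 3 they were 36.1, 751 and 2700 CPM, and in IR day 3 they were 7.04, 438 and 4050 CPM. The day 7 groups overlapped, and the day 3 libraries lay on both sides of them: 7 of the 12 were below every day 7 library and 4 were above every one. The 4 were DR day 3 replicates 4 and 6 and IR day 3 replicates 1 and 2. With both drying times averaged, the log2 fold change of day 7 over day 3 was 0.09 (SE 0.638, edgeR adjusted p = 0.937). Its sign depended on the libraries included: it was -0.78 without the 6 libraries of high gland share (edgeR adjusted p = 0.245).

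Among the gelatinases, which degrade denatured collagen and basement membrane collagen, Mmp2 is the broadly expressed fibroblast enzyme. Its lowest, median and highest levels were 214, 308 and 342 CPM in DR day 7 and 215, 375 and 415 CPM in IR day 7. They were 41.9, 128 and 305 CPM in DR day 3 and 24.5, 88.2 and 444 CPM in IR day 3. All 6 DR day 7 libraries were below their same-numbered IR day 7 library, by 0.01 to 0.74 on the log2 CPM scale. The titles state no pairing, so these pairs may not be real, and how many of all genes did the same was not counted. The groups overlapped through IR day 7 replicate 6. Of the day 3 libraries 8 were below all day 7 libraries and 2 above. The log2 fold change of day 7 over day 3, both drying times averaged, was 0.94 (SE 0.406, edgeR adjusted p = 0.0997). It was 0.22 (edgeR adjusted p = 0.766) without the 6 libraries of high gland share.

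Mmp9, the second gelatinase, is abundant in osteoclasts and neutrophils. Its levels ran 308, 438 and 574 CPM (lowest, median, highest) in DR day 7 and 271, 673 and 1166 CPM in IR day 7. In DR day 3 they ran 3.4, 111 and 709 CPM, and in IR day 3 they ran 0, 50.5 and 632 CPM. IR day 3 replicate 6 had 0 counts, which allows up to 0.603 CPM at 3 counts; this limit covers counting error only. No day 3 library exceeded the day 7 range and 8 lay below it. The log2 fold change of day 7 over day 3 was 1.33 (SE 0.783, edgeR adjusted p = 0.229), and 0.41 with the 6 gland-rich libraries left out (edgeR adjusted p = 0.731).

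Mmp3, or stromelysin 1, cuts proteoglycans and fibronectin and activates other proenzymes. It had 19.9, 41.2 and 90.5 CPM (lowest, median, highest) in DR day 7, against 8.15, 87.8 and 189 CPM in IR day 7. At day 3 it had 3.48, 24.7 and 71.7 CPM in DR, against 1.73, 9.45 and 187 CPM in IR. All 4 replanted groups overlapped, and the low end of IR day 7 was set by replicate 6. Unlike most members it was high in DR day 3 replicate 3 (71.7 CPM), where Mmp13 was at 36.1 CPM. The log2 fold change of day 7 over day 3 was 0.73 (SE 0.647, edgeR adjusted p = 0.429), and 0.17 with the 6 gland-rich libraries left out (edgeR adjusted p = 0.937).

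Mmp12, macrophage elastase, degrades elastin and is made mainly by macrophages. DR day 7 libraries had 73.7, 249 and 346 CPM (lowest, median, highest), and IR day 7 libraries had 48.7, 217 and 499 CPM. DR day 3 libraries had 2.61, 32.6 and 225 CPM, and IR day 3 libraries had 6.64, 17 and 253 CPM. In 7 of the 12 day 3 libraries the level was below every day 7 library, and in none was it above. With both drying times averaged and all 24 libraries, Mmp12 had the largest day 7 over day 3 log2 fold change of the 10 genes, 1.74 (SE 0.703, edgeR adjusted p = 0.082), which did not pass the test. It was 0.84 without the 6 libraries of high gland share (edgeR adjusted p = 0.555), and within IR alone that of Mmp19 was larger (1.93, against 1.89 for Mmp12).

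Mmp14, a membrane-bound collagenase that also activates pro-Mmp2 with the help of Timp2, had 348, 584 and 841 CPM (lowest, median, highest) in DR day 7 and 337, 808 and 999 CPM in IR day 7. DR day 3 had 45.1, 215 and 567 CPM and IR day 3 had 14.1, 146 and 624.7 CPM. The day 7 groups overlapped, and 7 day 3 libraries lay below both. The log2 fold change of day 7 over day 3 was 1.27 (SE 0.477, edgeR adjusted p = 0.0636), and 0.50 with the 6 gland-rich libraries left out (edgeR adjusted p = 0.444). Mmp19, a secreted enzyme of basement membrane turnover, was the rarest member, with 1.63, 3.16 and 5.87 CPM (lowest, median, highest) in DR day 7 and 3.49, 4.06 and 10.4 CPM in IR day 7. It had 0, 0.938 and 4.02 CPM in DR day 3 and 0, 0.604 and 4.46 CPM in IR day 3, with 0 counts in DR day 3 replicate 3 and in IR day 3 replicates 3 and 4. Those zeros allow up to 0.511, 0.555 and 0.741 CPM at 3 counts. Its day 7 over day 3 log2 fold change was 1.52 (SE 0.568, edgeR adjusted p = 0.0631), and 0.73 with the 6 gland-rich libraries left out (edgeR adjusted p = 0.462).

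Timp1, the inducible inhibitor and the second most abundant member, had 390, 740 and 1172 CPM (lowest, median, highest) in DR day 7 and 342, 911 and 1409 CPM in IR day 7. In DR day 3 it had 53.8, 453 and 2309 CPM, and in IR day 3 it had 10.9, 257 and 2837 CPM. Like Mmp13 it was below all day 7 libraries in 7 day 3 libraries and above all of them in 4, and these 4 were again DR day 3 replicates 4 and 6 and IR day 3 replicates 1 and 2. The log2 fold change of day 7 over day 3 was -0.14 (SE 0.638, edgeR adjusted p = 0.892), and -1.03 once the 6 libraries rich in gland transcripts were left out (edgeR adjusted p = 0.236). Timp1 overlaps Syn1 in the gene table, and without a stated strand setting reads of the pair cannot be told apart. Syn1 itself had 92 to 396 counts per replanted library.

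Timp2, the widely expressed inhibitor that forms a complex with Mmp14, had 293, 380 and 425 CPM (lowest, median, highest) in DR day 7 and 272, 453 and 480 CPM in IR day 7. The day 3 values were 63.5, 172 and 379 CPM in DR and 30.8, 119 and 583 CPM in IR. In 8 of 12 day 3 libraries Timp2 was below every day 7 library, and in 1, IR day 3 replicate 2, it was above. The log2 fold change of day 7 over day 3 was 0.92 (SE 0.369, edgeR adjusted p = 0.0812), and 0.24 with the 6 gland-rich libraries left out (edgeR adjusted p = 0.687). Timp3, which stays bound to the matrix, spread least of the members at day 3. Its day 7 levels ran 53.6, 73.3 and 94.4 CPM in DR and 57.2, 87.2 and 140 CPM in IR. Its day 3 levels ran 25, 56.1 and 80.3 CPM in DR and 19.9, 52.4 and 139 CPM in IR, overlapping those of day 7. Its day 7 over day 3 log2 fold change was 0.42 (SE 0.249, edgeR adjusted p = 0.234), and 0.02 with the 6 gland-rich libraries left out (edgeR adjusted p = 0.985). Timp2 overlaps Cep295nl and Timp3 overlaps Syn3, which had at most 12 and 5 counts in a replanted library.

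The first comparison asked whether 60 min of drying, against 5 min, changed these genes. No member passed the test at either day. At day 7, edgeR's quasi-likelihood test called 0 of the 10 genes in DR against IR, where 0% of all genes tested were called. At an unadjusted p under 0.05 the count was 0 of 10, against 1.79% of all genes. DESeq2 called 3 genes of 11492 and limma-voom 0, none of them a member. All 10 log2 fold changes were negative, from -0.79 for Mmp3 to -0.21 for Timp2 with a median of -0.30, while the median over all genes was 0 and 50% of genes were positive. The 10 values come from the same libraries and are not 10 independent results, and 7 of them were positive in a fit with the shares of both gland lists as covariates. The SE was 0.351 for Timp3 and 1.09 for Mmp9, so differences of the sizes seen were not detectable with the spread of the 24 libraries. That spread is estimated over all 4 groups, so these SEs include the wide day 3 spread and do not measure day 7 alone. For Mmp9 the SD of log2 CPM was 0.414 in DR and 0.773 in IR at day 7, against 3.13 and 4.04 at day 3.

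Within same-numbered libraries of day 7, DR was below IR in 6 of 6 for Mmp2 and Mmp19 and in 5 of 6 for Mmp9, Timp2 and Timp3. The mean difference was -0.29 ± 0.267 for Mmp2 and -0.59 ± 0.641 for Mmp19 (log2 CPM, SD, n = 6). For Mmp12, Mmp13 and Timp1 DR was below IR in 3 of 6. How many of all genes reached 6 of 6 was not counted. The pairing was chosen from these same data, and only 3 of the 6 replicate numbers correlated best with their own. An edgeR fit of the 12 day 7 libraries with the replicate number as a block called 0 members and 0% of all genes, and its 10 log2 fold changes were again negative. At an unadjusted p under 0.05 it had 2 members, Mmp2 (-0.28, SE 0.102, edgeR adjusted p = 0.68) and Mmp9 (-0.43, SE 0.153, edgeR adjusted p = 0.68), against 7.26% of all genes. Without the block the fit of these 12 libraries had 0 members, against 3.67% of all genes. The DR and IR ranges overlapped for all 10 genes.

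At day 3, DR against IR gave 0 calls among the 10 genes with edgeR, against 0% of all genes, and 0 at an unadjusted p under 0.05, against 2.72% of all genes. DESeq2 and limma-voom called 0 genes each. The log2 fold changes ran from -0.56 to 0.17, with 3 of 10 positive and a median of -0.12. This direction was not stable: with 1 library left out at a time, 0 to 9 were positive and the median ran from -0.65 (without DR day 3 replicate 4) to 0.41 (without IR day 3 replicate 2). With limma-voom 7 were positive, and with both gland shares as covariates all 10, at a median of 1.76. That covariate fit, added after seeing the data, called 0 genes. At an unadjusted p under 0.05 in edgeR it had 8 members, all but Mmp13 and Timp3, against 13.8% of all genes. Without IR day 3 replicate 6 edgeR called 4.95% of all genes, none of them a member. The interaction, which is the drying difference at day 7 minus that at day 3, also gave 0 calls in edgeR (0% of all genes), with 0 of 10 under an unadjusted p of 0.05, against 3.01% of all genes. DESeq2 called 11 genes for it and limma-voom 0, with no member among them. With both gland shares as covariates edgeR called 0 genes for the interaction. Under an unadjusted p of 0.05 that fit had 3 members (Mmp3, Mmp14 and Timp1), against 7.89% of all genes.

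**Figure D2:**
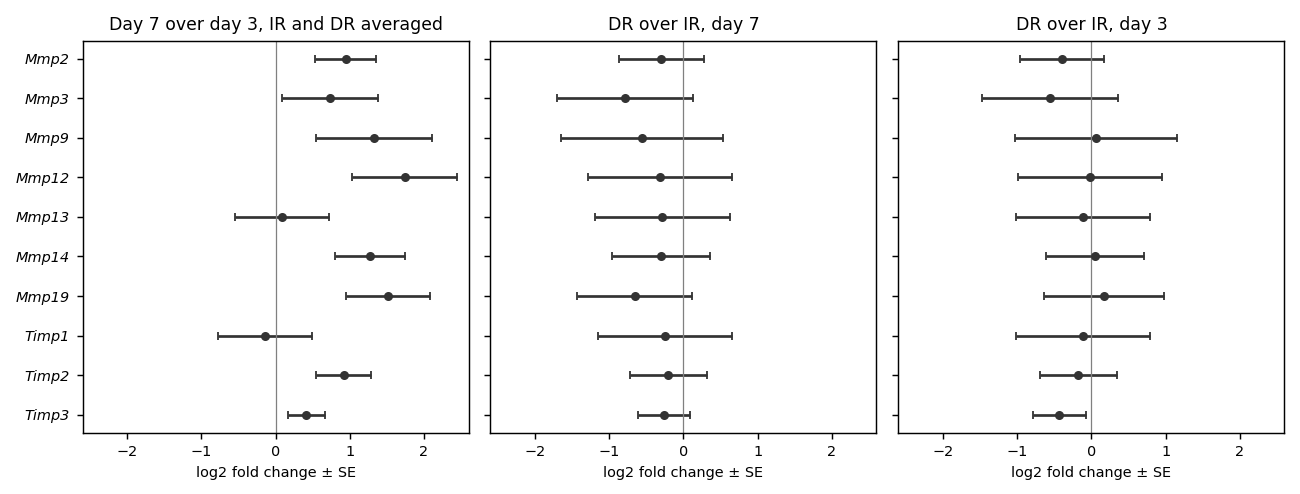
Log2 fold changes (x axis) with their SE (bars) for the 10 genes (rows): day 7 over day 3 with IR and DR averaged, DR over IR at day 7, and DR over IR at day 3, from the edgeR fit of 24 libraries. Of the day 7 over day 3 values 9 are positive, from Mmp13 at 0.09 to Mmp12 at 1.74, while all 10 DR over IR values at day 7 are negative and none passed the test.

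The second comparison asked how the genes changed between day 3 and day 7 of healing. Most values were higher at day 7, and none passed the test. With DR and IR averaged, edgeR called 0 of the 10 genes, whereas 18.8% of all genes were called, 6.94% higher and 11.8% lower. At an unadjusted p under 0.05 there were 5 of 10 (Mmp2, Mmp12, Mmp14, Mmp19 and Timp2, all positive), against 35.6% of all genes. The members' median log2 fold change was 0.93 and that of all genes -0.06. Within DR, edgeR called 0 members and 0.0087% of all genes, with 0 members under an unadjusted p of 0.05, against 22.5% of all genes. Within IR it called 0 members and 0.139% of all genes, with 2 members (Mmp14 and Mmp19) under an unadjusted p of 0.05, against 20.4%.

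The call for the averaged contrast depended on the tool and on single day 3 libraries. DESeq2 called 4 members (Mmp12, Mmp14, Mmp19 and Timp2) and 26.4% of all genes. limma-voom called 6 members (Mmp2 and Mmp9 in addition to those 4) and 19.6% of all genes, and with sample quality weights it called all 10 and 50.3% of all genes. With these weights it also called all 10 within DR, against 34.1% of all genes, and all 10 within IR, against 38.9%. Without DR day 3 replicate 4, IR day 3 replicate 1 or IR day 3 replicate 2, edgeR called 4 members each, against 23.5%, 24.5% and 25.1% of all genes, and without DR day 3 replicate 6 it called 2, against 22.9%. Without the 6 day 3 libraries of high gland share it called 0 members and 0.431% of all genes, and the members' median log2 fold change was 0.23. These 6 libraries were also low for most members, so a lower median follows from leaving them out. edgeR compares fitted mean counts, in which a few high libraries weigh more than in a mean of log2 values. Timp1 shows the difference: its mean log2 CPM at day 7 was 9.44 ± 0.608 in DR and 9.68 ± 0.695 in IR, against 8.57 ± 2.26 in DR and 8.14 ± 2.94 in IR at day 3 (SD, n = 6 each), while its edgeR fold change was slightly negative.

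The spread at day 3 was shared by most of the family. For 8 of the 10 genes, all but Mmp3 and Timp3, the 5 highest of the 12 day 3 libraries were the same: DR day 3 replicates 4, 5 and 6 and IR day 3 replicates 1 and 2. The share of all tested genes with these 5 libraries highest was not counted, so this order cannot be called particular to the family. The gap below them was wide for Mmp13, where the fifth and sixth libraries had 1335 and 539 CPM, and for Mmp9, where they had 201 and 60.3 CPM. The same 5 libraries were the highest for 5 of 16 cell-type marker lists, namely fibroblast and ligament, osteoblast, osteoclast, macrophage and endothelium. IR day 3 replicate 6 was lowest for 7 of the 10 genes. There the 10 genes together took 0.00998% of the counts, against 0.874% in IR day 3 replicate 2, and 0.276% to 0.726% over the 12 day 7 libraries.

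Beside these values, marker lists were summed as CPM of the library total, without the scaling used for single genes. The summed macrophage markers (11 of 11 in the tables) ranged at day 7 over 724 to 1600 CPM in DR and 621 to 1930 CPM in IR, at day 3 over 161 to 1090 CPM in DR and 72.8 to 1030 CPM in IR, and stood at 545 CPM in NT. The osteoclast markers (6 of 8 in the tables) ranged at day 7 over 2220 to 4910 CPM in DR and 2820 to 8460 CPM in IR, at day 3 over 42.8 to 5200 CPM in DR and 17.8 to 5850 CPM in IR, and stood at 1660 CPM in NT. The neutrophil and precursor markers (10 of 10 in the tables) ranged at day 7 over 2210 to 6040 CPM in DR and 1900 to 7650 CPM in IR. At day 3 they ranged over 186 to 8580 CPM in DR and 50.9 to 5750 CPM in IR, and they were highest in NT at 9890 CPM. In single day 3 libraries up to 3 of the osteoclast markers, 6 of the neutrophil markers and 1 of the macrophage markers were at 0. The fibroblast and ligament list ranged at day 7 over 2120 to 4420 CPM in DR and 1910 to 4990 CPM in IR, at day 3 over 681 to 3670 CPM in DR and 290 to 6390 CPM in IR, and stood at 6040 CPM in NT. The lipid gland list (5 of 6 in the tables, Dgat2l6 at 0 in all libraries) ranged at day 7 over 2.98 to 4450 CPM in DR and 4.83 to 51.2 CPM in IR, at day 3 over 44.6 to 22400 CPM in DR and 9.23 to 26500 CPM in IR, and stood at 39 CPM in NT. In the 7 day 3 libraries outside the 5 highest, low levels of most members came with low totals of fibroblast and ligament, osteoclast and macrophage markers. Of these 7, 4 had over 1% of lipid gland transcripts and 2 over 10% of nasal ones, while IR day 3 replicate 5 had neither. Some of the 5 highest held gland transcripts too: 0.547% lipid gland in DR day 3 replicate 5 and 4.84% nasal in DR day 3 replicate 4. The pericyte and smooth muscle list ran otherwise, with DR day 3 replicates 1, 2 and 3 and IR day 3 replicates 1 and 6 highest. The part of gland transcripts and cell types in the result was not tested. In such bulk samples, fewer cells of a type and less RNA per cell cannot be told apart.

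**Figure D3:**
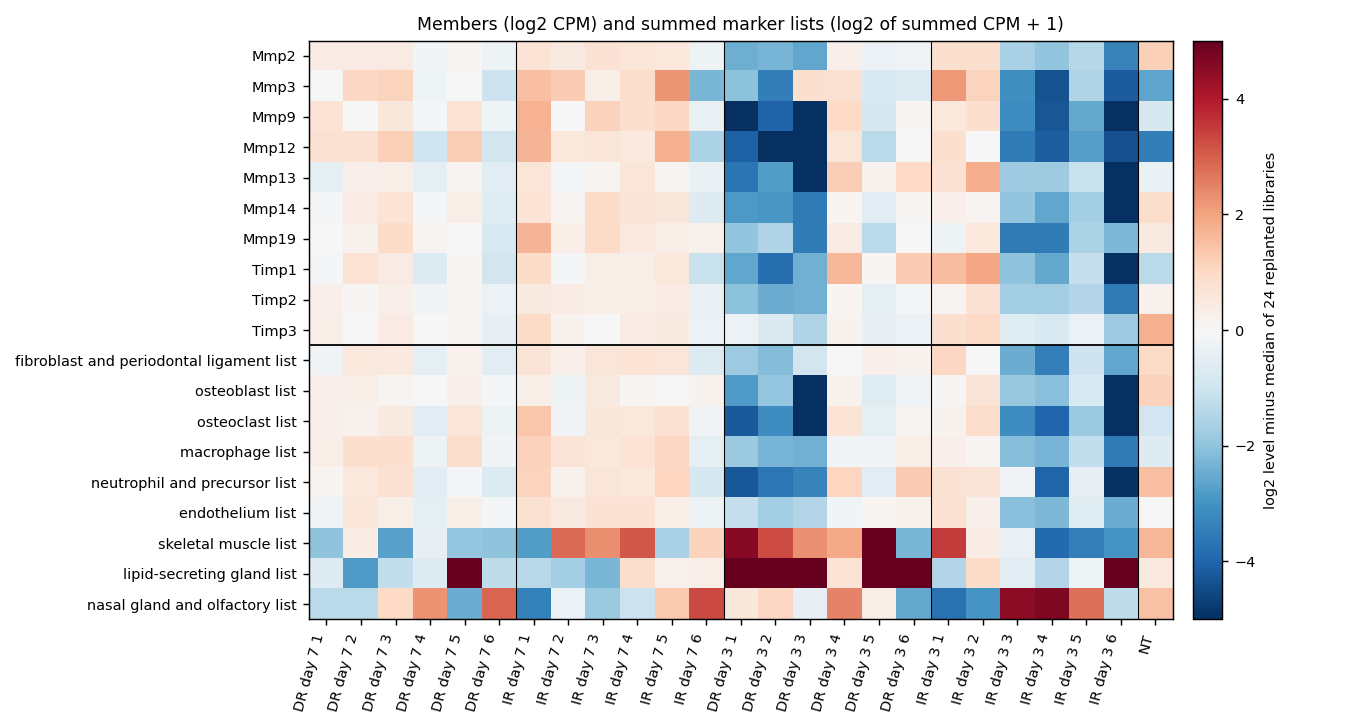
Log2 level of the 10 genes (upper rows) and of summed marker lists (lower rows) in each library (columns), relative to the median of the 24 replanted libraries, with colours ending at -5 and 5. In the day 3 columns DR replicates 1 to 3 and IR replicates 3, 4 and 6 are blue for most members and for the fibroblast, osteoclast and macrophage rows, and red for the lipid gland or the nasal row.

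Relative amounts within the family were compared by each gene's share of the 10 genes' counts, which does not depend on the total of the other genes. At day 7 the DR and IR shares differed by less than the spread between libraries. Mmp13 held 28.5 ± 3.1% in DR day 7, against 28.7 ± 5.71% in IR day 7 (SD, n = 6 each). Mmp14 held 15.1 ± 1.68% in DR day 7, against 15 ± 2.39% in IR day 7 (SD, n = 6 each). At day 7 Mmp9 held 11.6 ± 2.63% in DR and 12.8 ± 2.92% in IR, while at day 3 it held 4.86 ± 3.29% in DR and 4.21 ± 2.82% in IR (SD, n = 6 each). Over both drying times the Mmp9 ranges of the days overlapped through DR day 3 replicate 4 and IR day 3 replicate 1. Timp1 took 18.6 ± 3.3% in DR and 17.8 ± 2.38% in IR at day 7, with 25.6 ± 7.96% in DR and 21.7 ± 8.67% in IR at day 3 (SD, n = 6 each), and all groups overlapped.

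**Figure D4:**
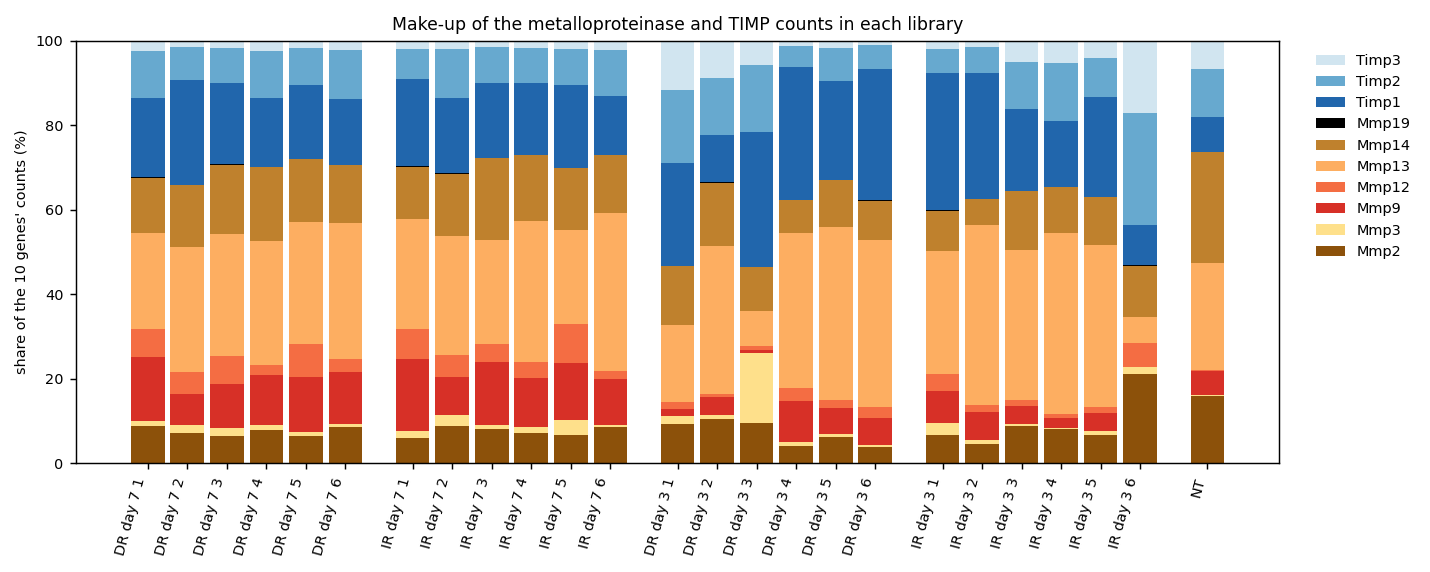
Percentage of the 10 genes' counts (y axis) taken by each gene in each library (bars, each summing to 100). The 12 day 7 bars look alike, with Mmp13 between 22.2% and 37.5%, and NT has the largest Mmp14 part at 26.3%.

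The 3 inhibitors together were outnumbered by the 7 enzymes in most libraries. The ratio of the 7 Mmp counts to the 3 Timp counts at day 7 was 1.93 to 2.57 in DR and 2.18 to 2.7 in IR, at day 3 it was 0.867 to 2.02 in DR and 0.889 to 1.88 in IR, and NT had 2.81. It lay below 1 in DR day 3 replicates 1 and 3 and in IR day 3 replicate 6. The day 3 and day 7 ranges met at 1.93 and 2.02 in DR and did not overlap in IR, where the highest day 3 value was 1.88 and the lowest day 7 value 2.18. This is a description with no test, since ratios were formed over the chosen genes.

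The inducible members weighed more against their more evenly expressed relatives in most of the 5 day 3 libraries with the highest levels. Timp1 over Timp2 was 6.09, 2.97 and 5.34 in DR day 3 replicates 4, 5 and 6, and 5.48 and 4.87 in IR day 3 replicates 1 and 2. Over the day 7 libraries it was 1.33 to 3.13 in DR and 1.26 to 2.93 in IR, and it was 0.712 in NT. Mmp13 over Mmp2 was 8.86, 6.52 and 10.3 in the same DR day 3 libraries and 4.41 and 9.13 in the IR ones. IR day 3 replicates 4 and 5 followed at 5.24 and 5.78, and day 7 libraries had 2.56 to 4.51 in DR and 3.08 to 4.65 in IR, with 1.57 in NT. The 5 libraries were singled out after their values were seen. Mmp14 over Timp2 at day 7 was 1.15 to 1.99 in DR and 1.24 to 2.23 in IR, at day 3 it was 0.664 to 1.6 in DR and 0.458 to 1.61 in IR, and NT had 2.32.

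**Figure D5:**
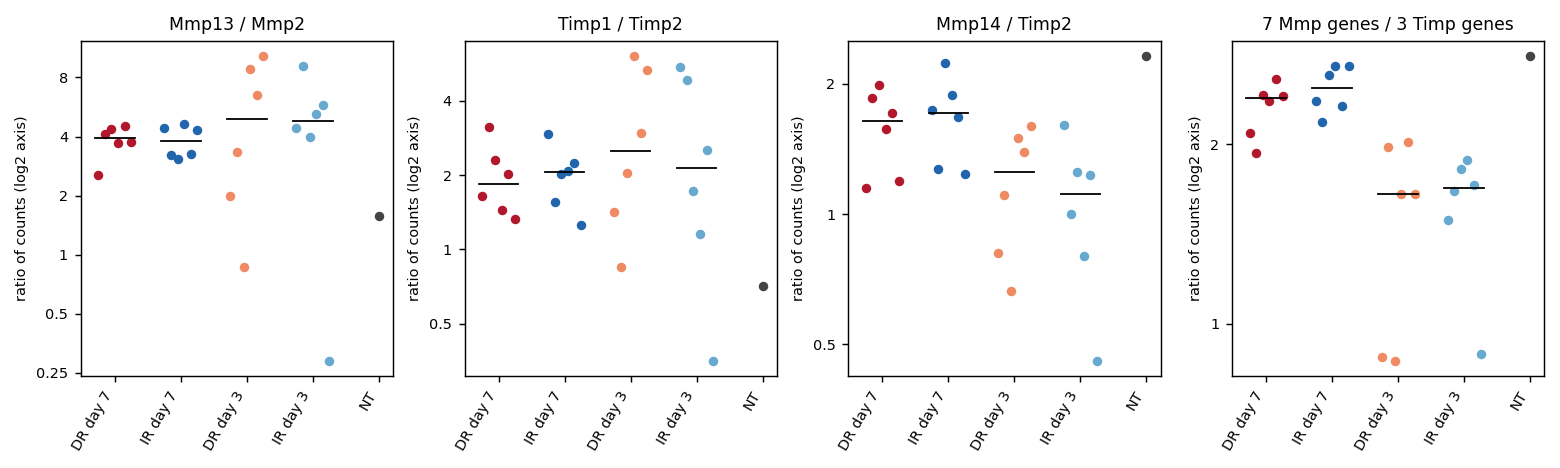
Ratios of counts per library on log2 axes by group, with points for replicates and lines for group medians: Mmp13 over Mmp2, Timp1 over Timp2, Mmp14 over Timp2, and the 7 Mmp genes over the 3 Timp genes. NT has the lowest Timp1 over Timp2 ratio but for IR day 3 replicate 6 (0.353), and the highest Mmp over Timp ratio (2.81).

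NT has 1 library, so its comparison has no replicate check and no p-value. Log2 ratios were taken of group mean CPM over NT with 5 CPM added to both, and a ratio of at least 1 in size is counted. Mmp2 and Timp3 were higher in NT than in all 24 replanted libraries, at 580 CPM and 245 CPM, and 9.1% of all genes were likewise above all 24. No member was below all 24, where 6.06% of genes were. Against the 12 day 7 libraries alone, NT was above all for Mmp2 and Timp3 (16.2% of genes) and below all for Mmp3, Mmp9, Mmp12 and Timp1 (13.6% of genes).

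In DR day 7, 4 members were past the ratio and higher than NT, against 6.47% of all genes, and 1 was lower, against 3.58%. In IR day 7 it was also 4 higher (4.8% of genes) and 1 lower (2.82%). The 4 were Mmp12, Mmp3, Timp1 and Mmp9 in both groups. Mmp12 had the largest log2 ratios, 3.66 for DR day 7 and 3.97 for IR day 7, with 13 CPM in NT. Mmp3 stood at 2.33 and 3.06, Timp1 at 1.33 and 1.58, and Mmp9 at 1.10 and 1.65 in DR day 7 and IR day 7. The lower one was Timp3 in both, at -1.64 for DR day 7 and -1.39 for IR day 7, and Mmp2 just missed the limit in DR day 7 at -0.99.

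Among DR day 3 ratios, 3 members were higher than NT past the ratio (10.2% of genes) and 4 were lower (6.2%). In IR day 3, 3 were higher (10.2%) and 3 lower (4.86%). Mmp12, Mmp3 and Timp1 were the higher ones in both, with log2 ratios of 2.13, 1.78 and 1.54 in DR day 3 and 2.15, 2.27 and 1.66 in IR day 3. Timp3, Mmp2 and Mmp14 were the lower ones in both, and Timp2 joined them in DR day 3 at -1.03. These means rest on few libraries: NT was above 3 of 6 libraries in each day 3 group for Mmp12 and Timp1.

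Other genes of the pathway were taken from 5 lists. Over DR and IR, day 7 against day 3, edgeR called 0 of 10 tested other metalloproteinases and inhibitors, the smallest p belonging to Mmp16, a membrane-type enzyme (log2 fold change 0.91, SE 0.335, edgeR adjusted p = 0.0589), and Mmp24 (-0.55, SE 0.21, edgeR adjusted p = 0.0669). Of the activators and plasmin system 1 of 12 rose, Lrp1, an endocytic receptor that clears proteases bound to inhibitors (1.01, SE 0.327, edgeR adjusted p = 0.0349). The ADAM and ADAMTS list had 4 of 15 higher: Adamts2, which trims the ends of procollagen (1.15, SE 0.249, edgeR adjusted p = 0.00795), Adam15 (0.95), Adam17, the protease that releases TNF from cells (0.77), and Adamts10 (0.76). Of the matrix substrates 5 of 20 rose, led by elastin, Eln (1.74, SE 0.27, edgeR adjusted p = 0.00163), the type I collagen chains Col1a2 (1.59) and Col1a1 (1.54), and Sparc (1.14), a collagen-binding glycoprotein. Of the inducers and transcription factors 4 of 18 rose: Tnf, the inflammatory cytokine (2.01, SE 0.688, edgeR adjusted p = 0.0442), Ets1, an Ets factor (0.98), Jund, an AP-1 subunit (0.57), and Rela, a subunit of NF-kappaB (0.46).

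No gene of these lists was called lower, and the counts stand beside 6.94% of all genes called higher. Median log2 fold changes were 0.40, 0.70, 0.76, 0.83 and 0.61 in the order of the lists above, against -0.06 for all genes. Within IR alone Eln was called (2.08, SE 0.386, edgeR adjusted p = 0.0318), and in no other contrast did edgeR call a gene of the 5 lists. Without the 6 libraries of high gland share, only Col1a2 (1.004, edgeR adjusted p = 0.0298) and Eln (1.43, edgeR adjusted p = 0.0485) of these 14 genes were still called higher.

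For each member the 3 genes of most similar log2 CPM over the 24 replanted libraries were found, as a description. The points of all genes share the same libraries and their depth, and the day 3 libraries with low levels lie together at the low end for most members. Mmp9 was closest to the osteoclast genes Ctsk (Pearson r 0.991, Spearman rho 0.967) and Acp5 (r 0.988, rho 0.962), and then to Ppic (r 0.987, rho 0.873). Mmp14 was closest to Lum (r 0.992, rho 0.963), a proteoglycan of collagenous tissue, followed by Ppic again (r 0.991) and Thbs2 (r 0.99). Mmp2 was closest to Pdlim7, Cd68 and Ext1 (r 0.984 for each). Mmp12 was closest to Cyth4, Junb and Bcl2a1 (r 0.974 to 0.976). Mmp13 had Emilin1, Slc1a5 and the bone matrix gene Ibsp as nearest (r 0.975 to 0.978), and Timp1 had Tubb6, Myof and Slpi (r 0.967 to 0.97). Timp2 had Csf1r, the macrophage growth factor receptor (r 0.988, rho 0.92), then Fxyd5 and Mical1 (r 0.986 for each). The coefficients were lower for Mmp3 (Slc39a6, r 0.929), Mmp19 (Sema4d, r 0.925) and Timp3 (S1pr1, r 0.936).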

How the data were processed

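RNA was extracted with Trizol and 500 ng per sample went into Lexogen QuantSeq libraries, per the labels' protocols. The authors deposited raw read counts, whole numbers with 1 row for each gene symbol and 1 table for each library. Bowtie2, edgeR and the builds mm10 and rn6 are named per the submitters' processing notes; their versions and the counting tool, strand setting and annotation were not given in the sources used.

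The members and lists were chosen with earlier results of these data known. For a repeated symbol (149 of 16881) the entry of highest total was kept. Counts of 24 libraries entered 1 quasi-likelihood model (R 4.3.3, edgeR 4.0.16, TMM scaling, filterByExpr, 4 group means, 20 residual degrees of freedom), tested on simulated data first. The Benjamini-Hochberg adjustment ran over all 11492 genes with a threshold of 0.05. A count of 0 was taken to allow up to 3 counts. Named were all 10 members, up to 4 called genes per list, and the 2 of smallest p in a list without calls. Same-numbered DR and IR libraries of day 7 deviated together (correlation 0.214 to 0.721, 6 of 6 above 0.1), and those numbers were taken to pair libraries. Only 3 of the 6 numbers correlated best with their own. The titles give replicate numbers and no pairing, so the pairs rest on these same data and may not be real. Other groups were not paired. Alternatives were DESeq2 1.42.0, limma 3.58.1 (voom, with and without quality weights), other scalings and filters, the replicate block and leaving out libraries. Leaving out 6 libraries by gland share and the gland covariates were added after seeing the data.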

Additional observations from a re-analysis of the deposited data

Results flagged for a closer look

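Among the 40 sets of 6 libraries (10 genes in 4 groups), 2 held a library far from the others, about as many as chance gives at 1 in 20, which is 2. Both were IR day 7 replicate 6. Mmp2 stood at 7.75 log2 CPM there, against 8.46 to 8.7 in the other libraries of the group, a gap of 0.748 of the group's range. Timp2 stood at 8.09 log2 CPM, against 8.78 to 8.91 in the others, a gap of 0.84 of the range. This library also had the highest nasal gland and olfactory share of its group (8.57% of counts), whose part in the low values was not tested.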

How the results depend on the processing

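For DR against IR at day 7 and day 3 and for the interaction, no setting called a member. For day 7 over day 3 with both drying times, edgeR called 0 members, DESeq2 4, limma-voom 6 and limma-voom with quality weights 10; the last also called 10 within DR and 10 within IR, beside 34.1% and 38.9% of all genes. Leaving out 1 library at a time gave 0 to 4 members for the averaged contrast and 0 elsewhere. Over all genes that contrast had 2156 calls with edgeR, 5780 with quality weights, 1197 with the block, 51 without the 6 libraries of high gland share and 34 with the gland covariates. Quality weights called 1523 genes for DR over IR at day 3 and 747 for the interaction, where edgeR called 0. Against NT, DR day 7 had 2 lower members with 1 CPM added or with RLE scaling and 2 higher at a log2 ratio of 1.5, where IR day 7 had 0 lower. The replicate block in the fit of 24 libraries called 0 members in every contrast. It joins the same numbers across all 4 groups, although only those of DR and IR at day 7 were taken to pair libraries, so outside that comparison it says nothing of pairs; the paired day 7 fit also called 0 members. For Timp1, day 7 over day 3 was 1.19 with limma-voom, 1.97 with quality weights and 0.003 with the replicate block, and -0.273 to 0.233 over single libraries left out. It was 0.15 without DR day 3 replicate 4, 0.03 without DR day 3 replicate 6, 0.07 without IR day 3 replicate 1 and 0.23 without IR day 3 replicate 2. For Mmp13 it was -0.78 without the libraries of high gland share, -0.44 with the gland covariates, and -0.044 to 0.552 over single libraries left out, being below 0 without DR day 3 replicates 1 (-0.04) or 3 (-0.01) or IR day 3 replicates 3 (-0.01), 4 (-0.01) or 6 (-0.04). With the gland covariates Timp3 stood at -0.047 for day 7 over day 3, and DR over IR at day 7 was 0.004 for Mmp2, 0.25 for Mmp9, 0.13 for Mmp12, 0.18 for Mmp13, 0.15 for Mmp14, 0.25 for Timp1 and 0.084 for Timp2. The cause was not tested. Depth limits what can be said of Mmp19, with 0 to 83 counts in a replanted library.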
